A study of Drosophila melanogaster with 48 samples.

Results

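Peptidoglycan recognition protein (PGRP) genes were followed in the abdominal fat body of Drosophila melanogaster, 8 in number: PGRP-SA, PGRP-SB1, PGRP-SC2, PGRP-SD, PGRP-LB, PGRP-LC, PGRP-LE and PGRP-LF. They were matched by FlyBase symbol among 14205 gene rows, all 8 were found, and the same tables held 13 PGRP genes in all. The flies were mated females of the w1118 strain (iso31), about 3 days old at the start, kept for 5 days at 25 °C under 12 h of light and 12 h of dark and about 8 days old at dissection. The control group ate food with 15% sucrose and yeast, and the restricted group ate food with 5%. Tissue was collected at 2 h steps over 12 times of day, given as zeitgeber time (ZT, counted in hours from lights on), with 2 biological replicates per diet and time and so 24 libraries per diet and 48 in all. Each library pooled fat tissue of about 10 flies with the attached epidermis and oenocytes, after intestine, ovaries and Malpighian tubules had been taken out. The labels name no infection, and whether single pools met microbes was not tested. In such bulk tissue, fewer cells of a type and less RNA per cell cannot be told apart.

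PGRPs bind peptidoglycan, the polymer of bacterial cell walls, and the fat body is the main organ that answers this binding by secreting antimicrobial peptides. The short secreted proteins PGRP-SA and PGRP-SD sense bacteria in the blood upstream of the Toll receptor, whereas the membrane receptor PGRP-LC and the mostly intracellular PGRP-LE sense diaminopimelic acid-type peptidoglycan and start the Imd pathway, which ends in the NF-kappaB factor Relish. A further set acts as brakes: PGRP-LB, PGRP-SC1a, PGRP-SC1b and PGRP-SC2 are amidases that cut peptidoglycan, and PGRP-LF is a membrane protein that damps signalling by PGRP-LC. PGRP-SB1 is an amidase too, but no role as a brake is assumed for it here.

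Total estimated counts per library ran from 5815484 to 33485917, and 10070 genes, all 8 members among them, passed the filter on low counts. Fat body markers summed to 50400 to 178000 TPM (a level relative to all transcripts of the library and corrected for transcript length) and oenocyte markers to 20800 to 59600 TPM, with no marker of either list at a median of 0. Transcripts of the removed organs varied widely. Gut markers summed to between 11.3 and 13500 TPM, with 6 of 20 at a median of 0, and ovary markers to between 5.1 and 15000 TPM, with a median of 1840 on the control and 593 on the restricted diet. Replicate 1 and replicate 2 stood apart from each other: 55.9% of the genes tested differed between them, so results are also given for each replicate series. In all, 6 libraries, 5 of them of replicate 1, stood apart by the mean log2 level of 13 antimicrobial peptide genes. Of these 6, restricted ZT2 of replicate 1 had 53.8% of its counts in ribosomal RNA, against a median of 0.681% over all libraries.

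The blood-borne sensors were the most abundant members and the amidase PGRP-SC2 the least. PGRP-SD ran from 67.7 to 188 TPM with a median of 122 TPM and exceeded PGRP-SA in 48 of 48 libraries. PGRP-SA ran from 31.5 to 106 TPM with a median of 62.1 TPM. The amidase PGRP-SB1 followed with a median of 33.4 TPM, and its span from 9.63 to 576 TPM was far wider than that of either sensor. The Imd receptors PGRP-LC and PGRP-LE had medians of 22.9 and 22.0 TPM. Their order was not stable, because PGRP-LC was the higher one in 27 of 48 libraries. PGRP-LB had a median of 11.6 TPM and PGRP-LF of 9.03 TPM. PGRP-SC2 had a median of 1.38 TPM, was at 0 in 1 library and reached 195 TPM in another. Of the remaining family genes, PGRP-LA (median 11.1 TPM) lay between PGRP-LB and PGRP-LF, exceeded by PGRP-LB in 29 of 48 libraries. PGRP-LD had 2.68 TPM, and PGRP-SC1a, PGRP-SC1b and PGRP-SB2 were at 0 in 34, 40 and 34 of 48 libraries.

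**Figure D1:**
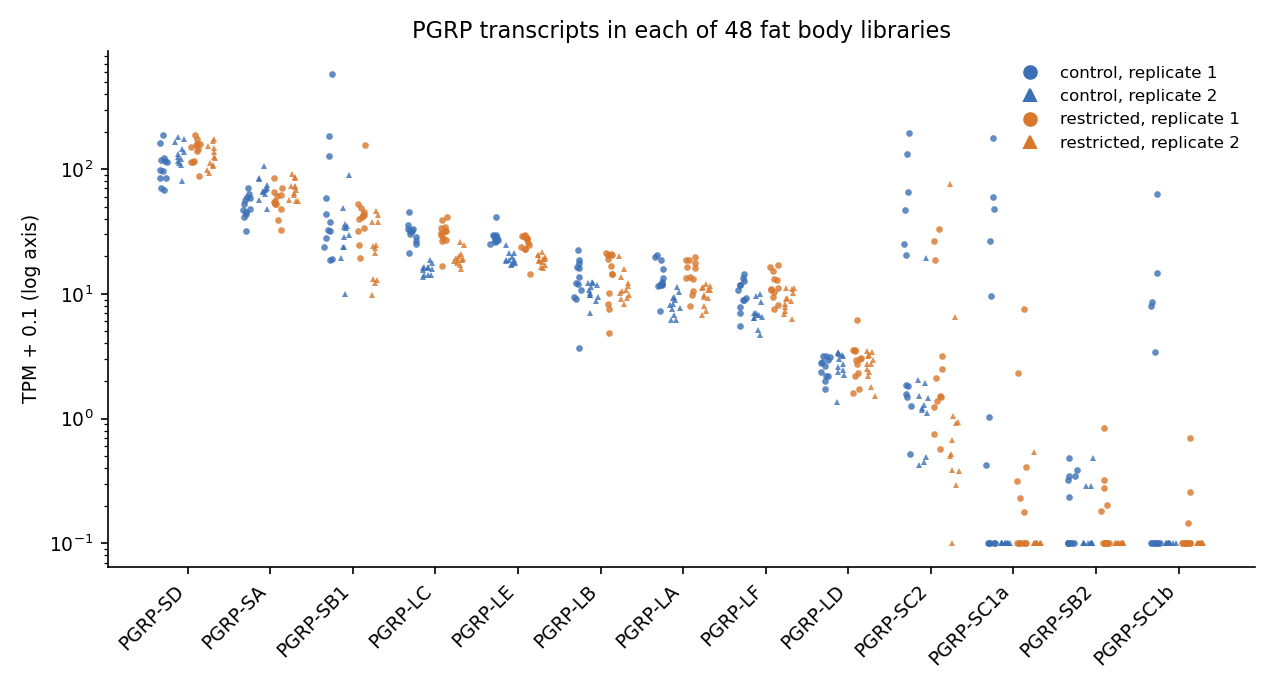
TPM plus 0.1 of the 13 PGRP genes on a log axis, 1 point per library, coloured by diet and shaped by replicate, in order of the median. PGRP-SD and PGRP-SA stand at the top in every group, and PGRP-SB1 and PGRP-SC2 have single libraries far above their medians of 33.4 and 1.38 TPM.

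The members differed as much in how steady they were. Within the 4 combinations of diet and replicate series, the standard deviation of log2 CPM (counts relative to the library total after TMM scaling, with no correction for length) was 0.13 for PGRP-LE, and only 2.3% of the genes tested had a smaller one. It was 0.30 for PGRP-LC, 0.37 for PGRP-SA, 0.38 for PGRP-LF, 0.40 for PGRP-SD and 0.53 for PGRP-LB, beside a median of 0.31 over all genes tested. PGRP-SB1, at 1.06, and PGRP-SC2, at 2.13, were among the most variable genes, with 91.4% and 98.4% of the genes below them. The cytosolic sensor was thus the steadiest member and both of these amidases the least steady ones.

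The diet comparison asked whether flies on the restricted diet carried different PGRP levels. PGRP-LF, the inhibitor of PGRP-LC, was higher on the restricted diet, and no other member passed the test in either direction in this fit, which has a term for time and none for the replicate series. Over all genes tested, 25.8% were called in this comparison, 10.4% as higher and 15.4% as lower on the restricted diet, so the count of 1 in 8 lies near the background and shows nothing particular to the family. The median log2 fold change of the 8 members was 0.20, beside 0.01 over all genes.

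PGRP-LF had from 4.49 to 15 CPM with a median of 8.95 CPM in the 24 control libraries, and from 6.34 to 17.1 CPM with a median of 11.1 CPM in the 24 restricted libraries. The ranges overlapped, but the restricted pair of libraries had the higher mean at 11 of 12 times. The log2 fold change was 0.39 ± 0.09 (SE, 24 libraries per diet; edgeR, adjusted p = 0.00599). It was 0.53 in replicate 2 alone (edgeR, unadjusted p = 0.000855, adjusted p = 0.00585, restricted higher at 12 of 12 times). In replicate 1 alone it was 0.29 (edgeR, unadjusted p = 0.0372, adjusted p = 0.269, higher at 9 of 12 times). Of all genes tested, 4310 were called by diet in replicate 2 alone and 2 in replicate 1 alone. Adjusted p-values of the 2 series therefore rest on unlike backgrounds, here and for the other members. With the gut and ovary marker scores in the fit the PGRP-LF value was 0.33 and its call was lost (edgeR, adjusted p = 0.276). In that fit 18 of the 10070 genes were called, against 2601 without the scores. The part of the removed organs' transcripts in the PGRP-LF difference was not tested beyond this. Some markers of other cell types were also higher on the restricted diet. Of the hemocyte markers 3 of 13 were called higher on the restricted diet and 0 lower, and they summed to 283 to 829 TPM on the control and 339 to 785 TPM on the restricted diet. Of the muscle markers 5 of 11 were higher and 0 lower, with sums of 1850 to 3980 and 1800 to 4350 TPM. Of the oenocyte markers 3 of 5 were higher and 0 lower, with sums of 22700 to 59600 and 20800 to 55700 TPM. The summed levels overlapped between the diets, but the lowest restricted sum of each list was in restricted ZT2 of replicate 1, the library rich in ribosomal RNA. Median sums on the control and restricted diet were 498 and 544 TPM for hemocyte, 2690 and 3050 TPM for muscle, and 32000 and 37100 TPM for oenocyte markers. No marker of these lists was at a median of 0, and the part of these markers in the PGRP-LF difference was not tested.

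The diet changes of both Imd receptors were compared between the 2 replicate series, and the difference passed the test for PGRP-LE but not for PGRP-LC. PGRP-LC had a mean of 34.4 ± 12.0 CPM (SD, n = 24) on the control and 40.4 ± 7.11 CPM (SD, n = 24) on the restricted diet, a log2 fold change of 0.25 ± 0.11 (SE; edgeR, adjusted p = 0.101). In replicate 1 the means were 42.6 ± 11.6 and 43.4 ± 6.66 CPM (SD, n = 12 each), and in replicate 2 they were 26.2 ± 4.09 and 37.4 ± 6.43 CPM (SD, n = 12 each). The PGRP-LC diet change was accordingly 0.06 in replicate 1 (edgeR, adjusted p = 0.803) and 0.52 in replicate 2 (adjusted p = 0.00189), where the restricted library was the higher one at 12 of 12 times. The difference between these changes was 0.46 ± 0.16 (SE; edgeR interaction, adjusted p = 0.0583) and missed the threshold. Without any 1 of 9 single libraries (control ZT4, ZT16 and ZT24 of replicate 1, control ZT4 and ZT16 of replicate 2, restricted ZT4 and ZT24 of replicate 1, restricted ZT18 and ZT22 of replicate 2) it passed, with values of 0.49 to 0.57.

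PGRP-LE was lower on the restricted diet in 1 series, short of the threshold, and rose in the other, on narrow ranges. In replicate 1 it had 24.8 to 32.4 CPM with a median of 30.6 CPM on the control and 23.9 to 32.6 CPM with a median of 26.4 CPM on the restricted diet. In replicate 2 it had 20.6 to 25.5 CPM with a median of 22.7 CPM on the control and 21.8 to 33.1 CPM with a median of 24.7 CPM on the restricted diet. The 4 ranges overlapped. Its diet change was -0.01 ± 0.06 over both series (SE; edgeR, adjusted p = 0.952). It was -0.15 in replicate 1 (edgeR, unadjusted p = 0.0246, adjusted p = 0.255) and 0.17 in replicate 2 (unadjusted p = 0.00732, adjusted p = 0.0227). PGRP-LE was the only member for which the difference between the series passed the test, at 0.31 ± 0.07 (SE; edgeR interaction, adjusted p = 0.00518), and it passed in each of the 48 removals of 1 library. Of all genes tested, 9.46% did so. On the log2(TPM + 1) scale the PGRP-LE difference was 0.16 and no longer passed (limma, adjusted p = 0.419).

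The secreted sensors and the amidases had diet changes that missed the threshold. PGRP-SA went from a median of 32 CPM (11.1 to 68.6 CPM) on the control diet to 34.9 CPM (19.3 to 67.1 CPM) on the restricted diet, a log2 fold change of 0.17 ± 0.14 (SE; edgeR, adjusted p = 0.393). PGRP-SD went from 59.5 CPM (22.8 to 101 CPM) to 67.1 CPM (47.4 to 98.2 CPM), a change of 0.25 ± 0.12 (SE; adjusted p = 0.114). Both ranges on the restricted diet lay inside those on the control diet. PGRP-LB changed by 0.23 ± 0.12 (SE; edgeR, adjusted p = 0.161), with the restricted pair higher at 10 of 12 times. PGRP-SB1 gave -0.32 ± 0.36 (SE; edgeR, adjusted p = 0.512), and this value was 0 to 2 decimals without control ZT14 of replicate 1. PGRP-SC2 gave -1.55 ± 0.69 (SE; edgeR, adjusted p = 0.088), from medians of 0.757 CPM on the control and 0.538 CPM on the restricted diet. It passed, at -1.94, without restricted ZT10 of replicate 2 (adjusted p = 0.0377), the library richest in gut markers.

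Without the 6 libraries that stood apart by their mean log2 level of antimicrobial peptide genes, 3 members were called by diet. All were higher on the restricted diet: PGRP-LF at 0.41 (edgeR, adjusted p = 0.00733), PGRP-LC at 0.33 (adjusted p = 0.0431) and PGRP-LB at 0.37 (adjusted p = 0.0296). In this fit 3183 genes were called in all. PGRP-LC also passed without any 1 of control ZT10, ZT14 or ZT22 of replicate 1, at 0.29 to 0.30.

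**Figure D2:**
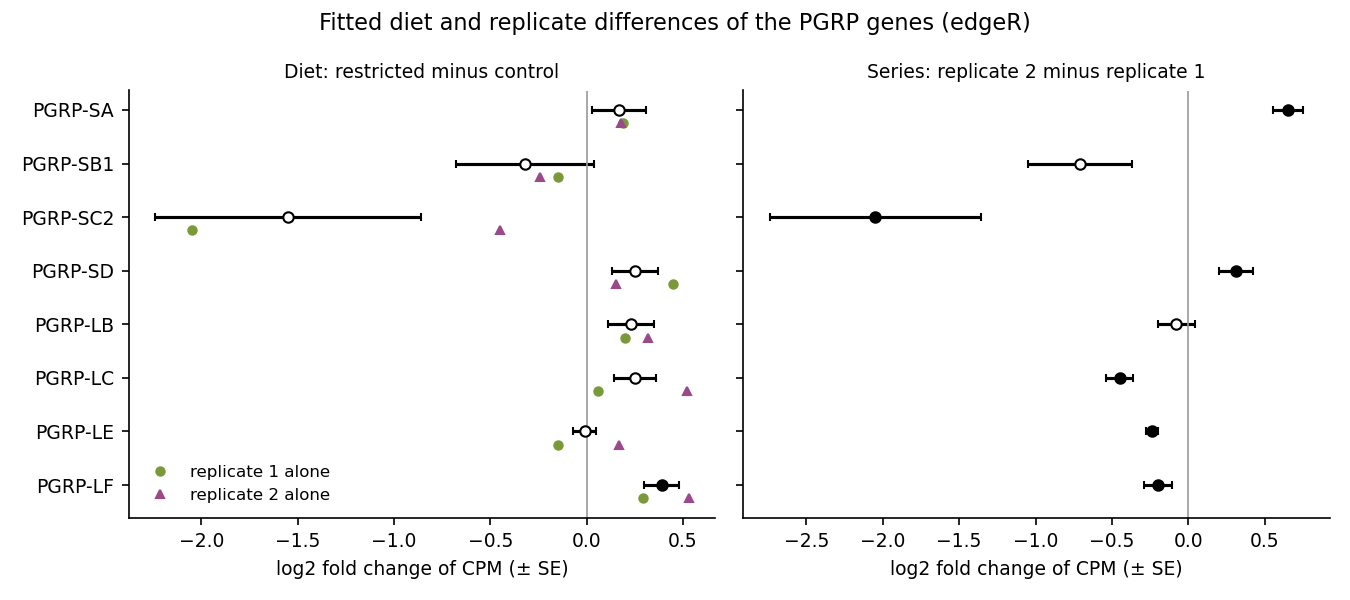
Fitted log2 fold changes of CPM with their standard errors for the 8 members, restricted minus control on the left and replicate 2 minus replicate 1 on the right, filled where the edgeR adjusted p was under 0.05. The small marks give the diet change in each replicate series alone. PGRP-LF has the only filled diet point, at 0.39, and PGRP-LC and PGRP-LE have the widest gaps between the series beside their errors.

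Other genes of these pathways, taken from lists, are given for reference. Of the other family genes tested, PGRP-SC1a and PGRP-SC1b were called lower on the restricted diet, but these are near-identical copies, so the split of reads between them is uncertain, and all 12 control libraries of replicate 2 were at 0 TPM for both. No fold is therefore given. PGRP-SC1a reached 178 TPM in the control libraries of replicate 1 and 7.42 TPM in the restricted ones. PGRP-LA, which promotes Imd signalling in barrier tissues, gave 0.26 ± 0.12 (SE; edgeR, adjusted p = 0.112), close to its neighbour PGRP-LC. Among 4 genes of the glucan-binding protein family, GNBP1, whose product works with PGRP-SA in Toll activation (0.31 ± 0.09, SE; adjusted p = 0.0129), and GNBP2 (0.37 ± 0.12, SE; adjusted p = 0.0222) rose on the restricted diet. Of 18 Imd pathway genes, 1 rose (the deubiquitinase gene trbd, 0.14) and 1 fell (the kinase gene Tak1, by 0.13 on the log2 scale). Of 16 Toll pathway genes, 4 rose and 1 fell, the receptor gene Tl (log2 fold change -0.33). Among those that rose were SPE, which encodes the protease that activates the Toll ligand (0.46, edgeR adjusted p = 0.0483), and the NF-kappaB gene Dif (0.26, adjusted p = 0.0159). Of 12 bomanins, short secreted peptides made under Toll control, 7 rose, among them BomS2 at 0.96 ± 0.20 (SE; edgeR, adjusted p = 0.00263) and BomT2 at 0.72 ± 0.13 (SE; adjusted p = 0.00111). With edgeR 0 of 13 antimicrobial peptide genes passed in either direction, also at an unadjusted p under 0.05 (median log2 fold change -0.91).

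Time of day was compared with a cosine curve of 24 h, fitted to both diets jointly. The amidase PGRP-LB and the inhibitor PGRP-LF were rhythmic over both diets, and no receptor or secreted sensor was. They rose and fell at different times of day. By mean TPM, PGRP-LB was high from ZT4 to ZT16 and low from ZT20 to ZT24. PGRP-LF was highest by mean TPM at ZT22, ZT24, ZT4 and ZT6 and lowest at ZT16. Of all genes tested, 4.47% were called rhythmic over both diets, and the median amplitude was 0.22 for the 8 members and 0.12 for all genes.

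The mean of the 4 PGRP-LB libraries at a time was lowest at ZT20, at 7.66 TPM (3.59 to 9.66 TPM), and highest at ZT8, at 15.8 TPM (11.6 to 21 TPM). The libraries of these 2 times did not overlap, but the times were picked as the extremes of 12, so this is a description only. The fitted amplitude (mean to peak, log2 scale) was 0.46 ± 0.08 (SE, 48 libraries; edgeR, adjusted p = 0.00133) with a peak at ZT 9.56. On the restricted diet PGRP-LB was the 1 member called, with an amplitude of 0.53 ± 0.12 (SE; edgeR, adjusted p = 0.0312) and a peak at ZT 8.79, in a comparison that called 1.15% of the genes tested. On the control diet its amplitude was 0.41 ± 0.12 (SE; edgeR, adjusted p = 0.151) with a peak at ZT 10.6, 0 members passed (3 at an unadjusted edgeR p under 0.05, and 0 with DESeq2), and 1.34% of the genes did. An amplitude that passes on 1 diet alone does not show that the diets differ. The difference between the diets was called in 0 members and in 0.0199% of all genes. At an unadjusted edgeR p under 0.05 there was 1 member, PGRP-SB1 (adjusted p = 0.422), and DESeq2 called 0.

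The call on the restricted diet was fragile. It was lost, with edgeR adjusted p-values of 0.0506 to 0.095, without any 1 of 10 restricted libraries (ZT6, ZT8, ZT12, ZT20, ZT22 and ZT24 of replicate 1 and ZT10, ZT18, ZT22 and ZT24 of replicate 2). The amplitude of PGRP-LB over both diets kept an adjusted p of at most 0.00337 in the same 48 removals. It was 0.65 in replicate 1 alone and 0.30 in replicate 2 alone, and missed the threshold in each (edgeR, adjusted p = 0.0816 and 0.0979), with 24 libraries in place of 48.

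PGRP-LF had its lowest mean at ZT16, at 6.02 TPM (4.98 to 7.52 TPM over 4 libraries), and its highest at ZT22, at 11.8 TPM (9.94 to 13.3 TPM). Libraries of these times, again picked as the extremes, did not overlap either. The restricted mean exceeded the control mean at both, 6.86 against 5.18 TPM and 12 against 11.6 TPM. The fitted amplitude was 0.30 ± 0.07 (SE, 48 libraries; edgeR, adjusted p = 0.0155) with a peak at ZT 1.96. On TPM, a scale this fit did not use, the mean at ZT2 was 9.15 TPM (6.92 to 11.6 TPM). That mean includes 7.99 TPM in restricted ZT2 of replicate 1, the library rich in ribosomal RNA. Gut markers also varied with time, 13 of 19 tested being called rhythmic over both diets. With the gut and ovary scores in the fit the amplitudes of PGRP-LB and PGRP-LF were 0.44 (edgeR, adjusted p = 0.00382) and 0.33 (adjusted p = 0.0176). PGRP-LF had 0.32 in replicate 1 alone and 0.28 in replicate 2 alone, neither past the threshold (edgeR, adjusted p = 0.29 and 0.149).

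**Figure D3:**
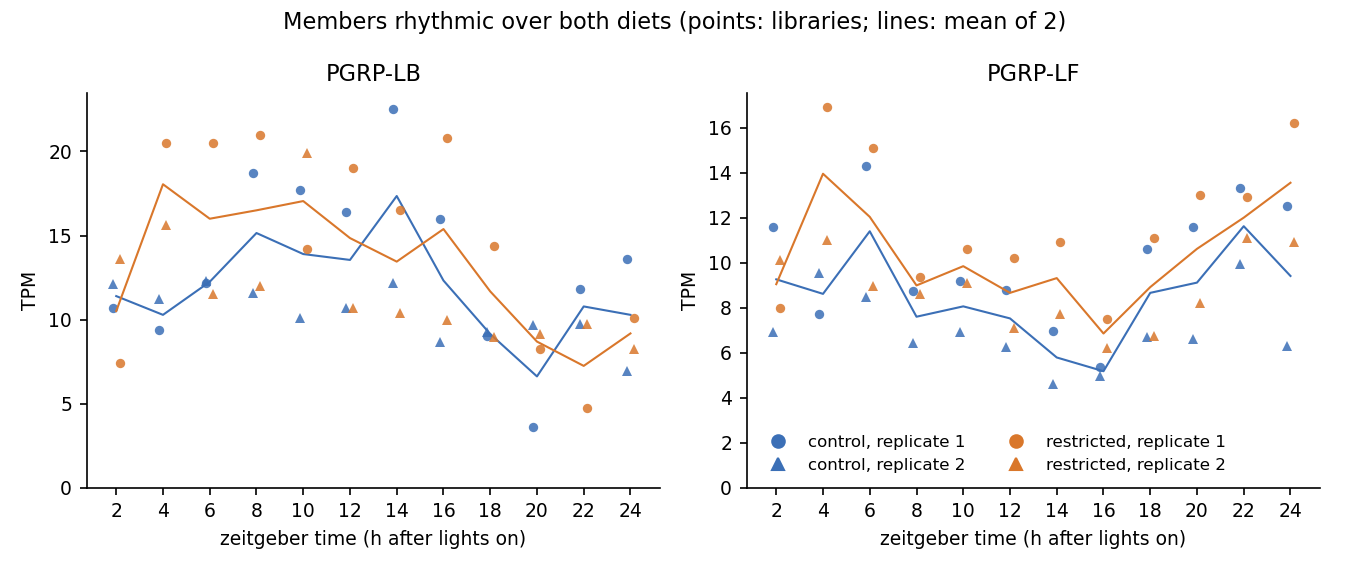
TPM of PGRP-LB and PGRP-LF by zeitgeber time, 1 point per library and lines through the mean of the 2 libraries of a diet. PGRP-LB is lowest at ZT20 (mean of 4 libraries 7.66 TPM) and PGRP-LF at ZT16 (6.02 TPM).

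The remaining members had no called rhythm. PGRP-SC2 had the largest fitted amplitude, 1.05 ± 0.46 (SE), and missed narrowly (edgeR, adjusted p = 0.0512). It passed in 14 of 48 removals of 1 library (lowest adjusted p = 0.0237) and with DESeq2, and had 0.41 (adjusted p = 0.54) with the gut and ovary scores in the fit. PGRP-SA had 0.24 ± 0.10 (SE; adjusted p = 0.245) and PGRP-SB1 0.20 ± 0.22 (SE; adjusted p = 0.764). PGRP-LC, PGRP-LE and PGRP-SD had fitted amplitudes of 0.14, 0.10 and 0.09, near the median of all genes. In the lists, 7 of 8 core clock genes were called rhythmic over both diets, and the pathways contributed trbd (amplitude 0.14, edgeR adjusted p = 0.0345), the Toll regulator gene Pli (0.36, adjusted p = 0.000531, peak at ZT 16.6) and BomS4 (0.26, adjusted p = 0.0454).

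More genes were called between the replicate series than between the diets, and the members moved in both directions. The 2 shares come from unlike fits, as the series fit has a term for diet and the diet fit none for the series. In replicate 2 the secreted sensors were higher, both Imd receptors and the inhibitor PGRP-LF were lower, and the amidase PGRP-SC2 was lower. This comparison was added after the data were seen. It called 6 of 8 members, beside 55.9% of all genes: 2 higher in replicate 2, where 23% of all genes were called, and 4 lower, where 32.9% were. The median log2 fold change was -0.22 for the members and -0.09 for all genes.

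PGRP-SA had 11.1 to 39.5 CPM (median 26 CPM) in the control and 19.3 to 40.7 CPM (median 27.4 CPM) in the restricted libraries of replicate 1. In replicate 2 it had 26.4 to 68.6 CPM (median 37.8 CPM) and 33.2 to 67.1 CPM (median 42.8 CPM). The ranges overlapped, yet the replicate 1 library was the higher one in 2 of 24 pairs of the same diet and time. The log2 fold change of PGRP-SA, replicate 2 over replicate 1, was 0.65 ± 0.10 (SE, 24 libraries each; edgeR, adjusted p = 9.34e-07). PGRP-SD rose by 0.31 ± 0.11 (SE; edgeR, adjusted p = 0.0176), with the replicate 1 library higher in 6 of 24 pairs.

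PGRP-LC changed by -0.45 ± 0.09 (SE; edgeR, adjusted p = 5.16e-05) and PGRP-LE by -0.24 ± 0.04 (SE; adjusted p = 1.47e-05). The PGRP-LE library of replicate 1 was the higher one in 21 of 24 pairs, and that of PGRP-LC in 18 of 24. PGRP-LF changed by -0.20 ± 0.09 (SE; edgeR, adjusted p = 0.0489), a call that was lost in 36 of 48 removals of 1 library. PGRP-SC2 changed by -2.05 ± 0.69 (SE; edgeR, adjusted p = 0.012). PGRP-SB1 had -0.71 ± 0.34 (SE; edgeR, adjusted p = 0.074), which passed without control ZT20 or restricted ZT4 of replicate 2 and was -0.39 without control ZT14 of replicate 1. PGRP-LB did not pass (-0.08 ± 0.12, SE; adjusted p = 0.617).

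These values depend on how libraries are scaled. On the log2(TPM + 1) scale, with no TMM, the median of all genes was -0.24 in replicate 2 against replicate 1. There PGRP-SA was at 0.40, PGRP-SD at 0.08 with its call lost (limma, adjusted p = 0.449), PGRP-LC at -0.77, PGRP-LE at -0.48 and PGRP-LF at -0.41. Relative to the median of all genes on each scale, PGRP-SA and PGRP-SD stayed above and PGRP-LC, PGRP-LE and PGRP-LF below it. Many lists moved with the series. Of the immune lists, the antimicrobial peptides had 10 of 13 genes lower in replicate 2 (DptA at -3.92 ± 0.83, SE; edgeR, adjusted p = 0.000155), and the bomanins had 10 of 12 higher (BomBc3 at 1.47 ± 0.21, SE; adjusted p = 4.54e-07). Among Imd genes, 8 of 18 fell in replicate 2, among them the deubiquitinase gene CYLD (-0.42) and pirk, which encodes an inhibitor of PGRP-LC signalling (-1.43 ± 0.17, SE; adjusted p = 1.31e-08), and 4 rose, including Diap2 (0.24). In the Toll list SPE (0.89) and the serpin gene nec (0.81) rose, and dl (-0.44) and spz (-0.54) fell, in all 6 up and 5 down of 16. Fat body markers summed to a median of 67700 TPM in replicate 1 and 98000 TPM in replicate 2, and oenocyte markers to 38000 and 30900 TPM. Of the ovary markers 9 of 16 were lower in replicate 2 (median log2 fold change -1.97), of the hemocyte markers 8 of 13 were higher and 2 lower (median 0.49), and of the muscle markers 7 of 11 were higher and 1 lower (median 0.37). Glucan-binding proteins were higher in 3 of 4. The part of these markers in the member differences was not tested.

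Induced immunity was read from an index, the mean log2 CPM of 13 antimicrobial peptide genes. Its median over the 48 libraries was 0.54, and 6 libraries lay over a limit of 2.93 (the median plus 3 scaled median absolute deviations), with a gap from 1.80 to 2.99. Of the 8 members, the amidase PGRP-SB1 marked these libraries: it had 45.4 to 576 TPM there and 9.63 to 58.8 TPM in the other 42, so that 5 of the 6 lay above all of the 42. No other member separated them. The index gives the 13 genes equal weight, so the 42 include libraries with high levels of single peptides. The drosomycin gene Drs had 123 to 1000 TPM in the 6 and 62.3 to 2790 TPM in the 42. The listed antimicrobial peptide genes summed to 3190 TPM in control ZT16 of replicate 1, below the limit. They summed to 1360 TPM in control ZT20 of replicate 2, over the limit.

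In the library with the highest index, control ZT14 of replicate 1 (5.38), PGRP-SB1 had 576 TPM and the diptericin gene DptA, an Imd target, 3030 TPM. Control ZT10 of replicate 1 (index 4.00) had 185 TPM of PGRP-SB1 and 626 TPM of DptA. Restricted ZT2 of replicate 1 (3.82), the library rich in ribosomal RNA, had 157 and 328 TPM. PGRP-SB1 was thus high in the libraries at the top of the index. DptA is itself among the genes averaged in the index, so its high level there follows in part from the ranking. These levels therefore cannot show whether PGRP-SB1 and DptA rise together. Pearson's r of PGRP-SB1 with DptA was 0.66 over all 48 libraries and 0.12 among the 42 below the limit. Control ZT6 of replicate 1 (3.35) had 127 TPM of PGRP-SB1 and 1030 TPM of DptA. Restricted ZT10 of replicate 1 (3.11) had 45.4 and 285 TPM, the PGRP-SB1 level lying within the range of the other 42. Control ZT20 of replicate 2 (2.99) had 90 TPM of PGRP-SB1 with 22.1 TPM of DptA. That library also had the highest PGRP-SA level of all, 106 TPM, and 918 TPM of the drosomycin gene Drs, a Toll target.

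The Toll sensors and the receptors did not stand out in the 6 libraries. PGRP-SD had 87.4 to 173 TPM there and 67.7 to 188 TPM elsewhere, and PGRP-LC had 14.1 to 32.8 TPM there and 13.5 to 45.1 TPM elsewhere. PGRP-LF had 6.63 to 14.3 TPM there and 4.61 to 16.9 TPM elsewhere. By TPM, the lowest PGRP-LE level of all (14.3 TPM) was in restricted ZT2 of replicate 1, the library with 53.8% of its counts in ribosomal RNA. By CPM this library was not the lowest. Restricted libraries of replicate 1 had 23.9 CPM or more of PGRP-LE, and the lowest control library of replicate 2 had 20.6 CPM. The highest PGRP-LB level, 22.5 TPM, was in control ZT14 of replicate 1. Gut markers were high in most of the 6 libraries: they summed to 11400, 9590 and 3230 TPM in control ZT14, ZT6 and ZT10 of replicate 1, to 985 TPM in restricted ZT10 of replicate 1 and to 109 TPM in control ZT20 of replicate 2, beside a median of 63.8 TPM over all libraries. In restricted ZT2 of replicate 1 they summed to 11.3 TPM, the lowest sum of all 48. The mean log2 CPM of the gut markers was -1.18 there and lower, at -1.39, in control ZT4 of replicate 1. The part of gut tissue in the PGRP-SB1 levels was not tested.

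**Figure D4:**
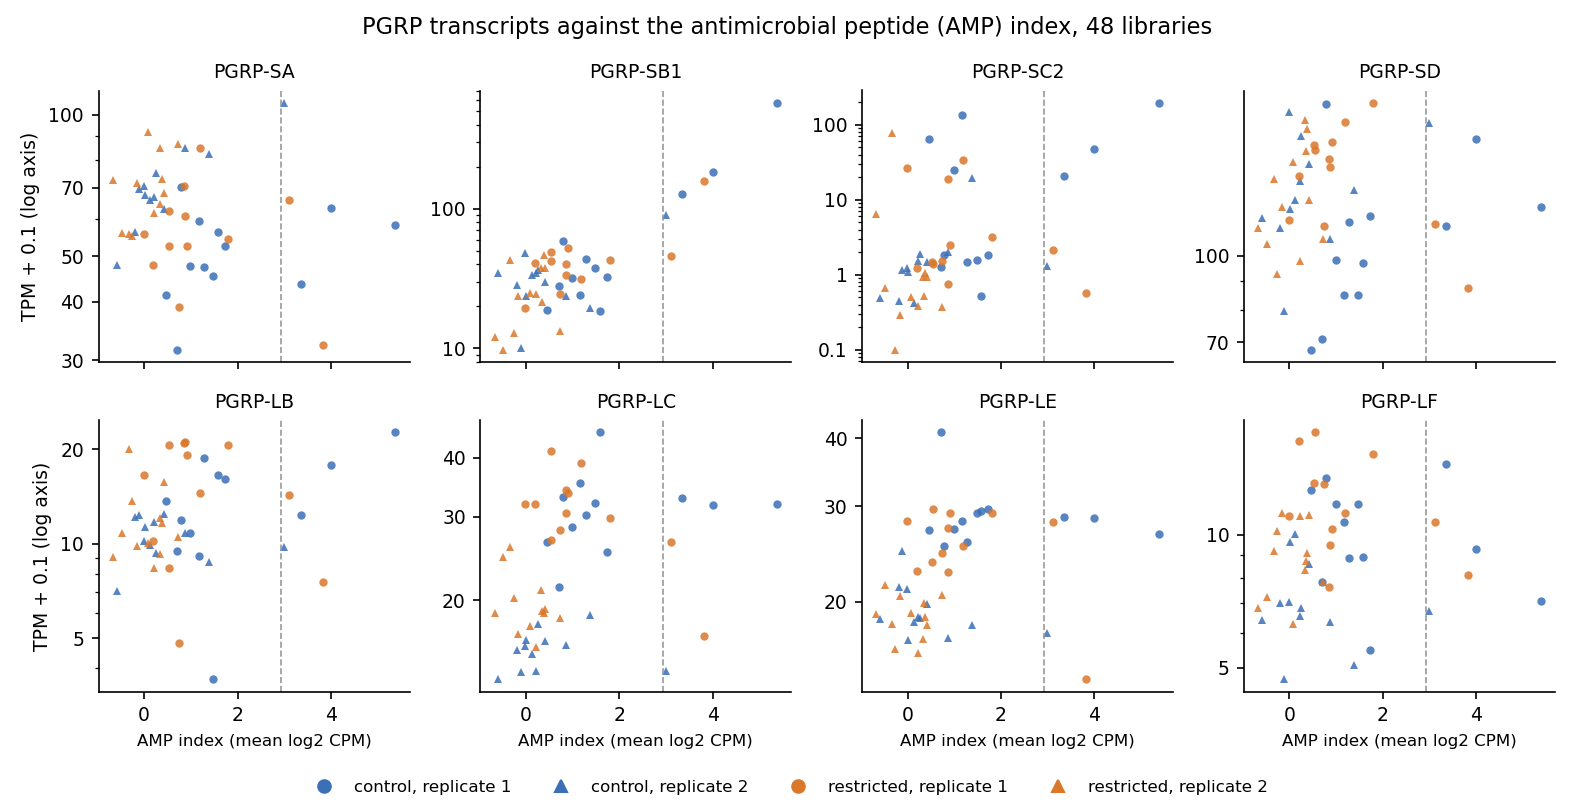
TPM plus 0.1 of each member on a log axis against the antimicrobial peptide index of the library (mean log2 CPM of 13 genes), 1 point per library, with the limit of 2.93 as a dashed line. PGRP-SB1 reaches 576 TPM right of the line and stays at or below 58.8 TPM left of it. Right of the line 1 library has 45.4 TPM of PGRP-SB1, within the range on the left, and the other members overlap more.

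Because the libraries fell into separate clusters, relations were computed within the 42 libraries below the limit, for 8 members and 2 indices (antimicrobial peptides and bomanins), and p-values were adjusted over these 16 relations. By Pearson's r 4 passed. PGRP-SA followed the bomanin index (Pearson r = 0.69, permutation p = 1e-05, the smallest that 100000 permutations can give, adjusted p = 0.00016; Spearman rho = 0.63, permutation p = 1e-05, adjusted p = 0.00016). Both PGRP-SA and 10 of 12 bomanins were higher in replicate 2, and the permutations did not keep the series apart. The pooled r and p therefore mix that difference with the relation. Leaving out the pair of libraries with the most extreme index gave r = 0.57. Within replicate 1 (n = 19) r was 0.57, within replicate 2 (n = 23) 0.66, on the control diet (n = 20) 0.69 and on the restricted diet (n = 22) 0.64. By Pearson's r this relation passed in each of these subsets (adjusted permutation p from 0.0016 to 0.0437), but by Spearman's rho it did not within replicate 1 (rho = 0.30, adjusted permutation p = 0.486) or on the control diet (rho = 0.57, adjusted p = 0.0543). On log2(TPM + 1) in place of log2 CPM, r was 0.43 over the 42 libraries (adjusted permutation p = 0.0277).

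The other 3 relations were not seen within both series. PGRP-LE followed the antimicrobial peptide index over 42 libraries (r = 0.59, permutation p = 6e-05, adjusted p = 0.00048; rho = 0.55, permutation p = 0.00021, adjusted p = 0.00168), with r = 0.56 without the 2 farthest libraries, 0.57 within replicate 1 and 0.11 within replicate 2. PGRP-LC followed it too (r = 0.42, permutation p = 0.00621, adjusted p = 0.0248; rho = 0.41, permutation p = 0.00717, adjusted p = 0.0364), with r = 0.48 without the 2 farthest, but 0.15 and 0.10 within the series. Both the index and these receptors differed between the series, so the pooled values mix that difference with the relation. PGRP-SD followed the bomanin index (r = 0.43, permutation p = 0.00417, adjusted p = 0.0222; rho = 0.32, permutation p = 0.0436, adjusted p = 0.14), with r = 0.32 without the 2 farthest, 0.63 within replicate 1 and 0.11 within replicate 2, and on log2(TPM + 1) r was 0.05. By rank alone PGRP-SC2 passed with the antimicrobial peptide index (rho = 0.40, adjusted permutation p = 0.0364; r = 0.22, adjusted p = 0.281). Some relations held within a series and not over both. PGRP-LC followed the bomanin index at r = 0.62 within each series (adjusted permutation p = 0.0273 in replicate 1 and 0.0112 in replicate 2) but at 0.24 over the 42 libraries (adjusted p = 0.281). Within replicate 2 the same held for PGRP-LE with the bomanins (0.56, adjusted permutation p = 0.0218) and for PGRP-SA with the antimicrobial peptides (0.61, adjusted p = 0.0112), and within replicate 1 for PGRP-LF with the bomanins (0.63, adjusted p = 0.0273). Among the 42 libraries PGRP-SB1 had r = 0.22 with the antimicrobial peptide index (permutation p = 0.158, adjusted p = 0.281; rho = 0.17, permutation p = 0.285, adjusted p = 0.433). Within the 6 libraries over the limit, PGRP-SB1 had r = 0.89 with the index (exact permutation p = 0.0181, adjusted p = 0.141; rho = 0.89, exact permutation p = 0.0333, adjusted p = 0.178), and 0 of 16 relations on log2 CPM passed the adjustment there.

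PGRP-SC2 had a pattern of its own, with most libraries near 1 TPM and a few far above. It reached 10 TPM or more in 11 libraries, 9 of replicate 1 and 7 on the control diet. Gut markers summed to 178 to 13500 TPM in these 11 (median 3230 TPM) and to 11.3 to 8400 TPM in the other 37 (median 34.3 TPM). The highest PGRP-SC2 levels were 195 TPM in control ZT14 and 133 TPM in control ZT18 of replicate 1, where gut markers summed to 11400 and 1170 TPM. Next came restricted ZT10 of replicate 2, with 76.3 TPM, the highest gut sum of all (13500 TPM), no DptA transcript and 42.5 TPM of PGRP-SB1. High gut markers did not always come with PGRP-SC2, as control ZT14 of replicate 2 had 5860 TPM of gut markers and 1.07 TPM of PGRP-SC2. PGRP-SC1a was high beside it in some of these libraries, with 178 TPM in control ZT14 and 60.1 TPM in control ZT18 of replicate 1, but was at 0 in control ZT6 of replicate 1 and had 0.443 TPM in restricted ZT10 of replicate 2. In the gut PGRP-SC2 and its relatives are known to limit the response to resident bacteria. The part of gut tissue in the PGRP-SC2 values was not tested beyond the fits with marker scores, where its diet change was -0.98 (edgeR, adjusted p = 0.515).

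**Figure D5:**
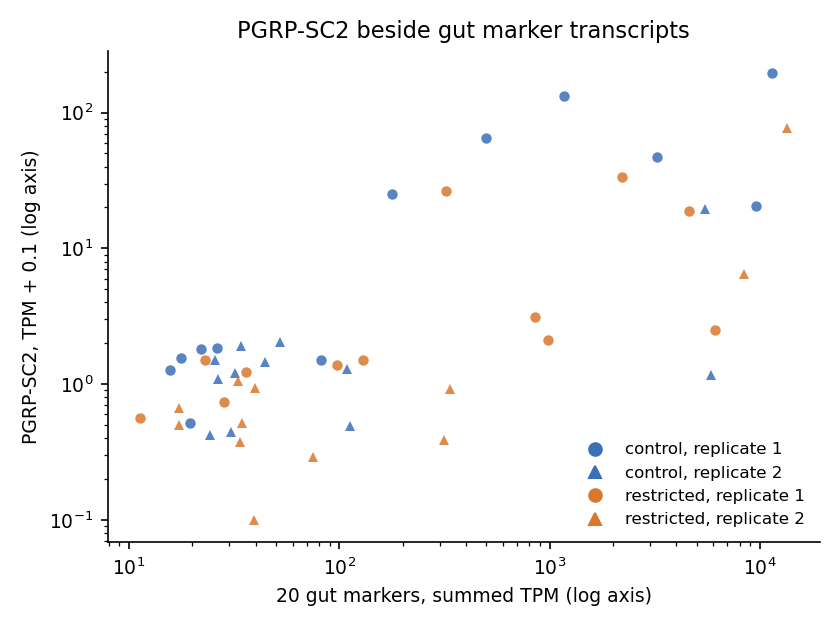
PGRP-SC2 (TPM plus 0.1) against the summed TPM of 20 gut markers, both on log axes, 1 point per library. Libraries with 10 TPM or more of PGRP-SC2 have gut sums from 178 to 13500 TPM, and several libraries with high gut sums have little PGRP-SC2.

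The genes whose log2 CPM was most like each member's over the 48 libraries were taken from 6289 genes with at least 10 CPM on average. These correlations share library and series effects and are given as descriptions. PGRP-SB1 was most like 3 antimicrobial peptide genes, DptB (r = 0.77), AttC (0.75) and Mtk (0.71). For DptB r was 0.87 within replicate 1 and 0.37 within replicate 2, and among the 42 libraries below the limit it was 0.23. PGRP-SC2 was most like hiro (0.92), CG17633 (0.90) and CG18180 (0.89), and PGRP-SA like GstE12, CG5167 and CG14629 (0.91 each). PGRP-SD was most like Ldsdh1 (0.88), Aldh7A1 (0.86) and Idgf4 (0.85). For PGRP-LC the list was CG17841 (0.89), CG12851 (0.87) and its neighbour PGRP-LA (0.87), whereas PGRP-LF, the neighbour on the other side, had r = 0.55 with PGRP-LC and was most like hgo (0.84), CG31205 (0.81) and CG31207 (0.77). PGRP-LC with PGRP-LA kept r = 0.89 and 0.81 within the series. PGRP-LB had CG10237 (0.75), CG12065 (0.68) and CG7778 (0.67). PGRP-LE, the steadiest member, had VhaM9.7-c (0.74), Rap2l (0.73) and EMC5 (0.73), and these fell to between 0.38 and 0.61 within the series. Among the members themselves, the secreted sensors PGRP-SA and PGRP-SD went together (r = 0.73; 0.77 and 0.58 within the series), and the receptors PGRP-LC and PGRP-LE had r = 0.61, with 0.23 within replicate 1 and 0.56 within replicate 2.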

How the data were processed

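The authors deposited estimated counts and TPM per gene for 48 libraries; the submitters' processing notes name kallisto 0.44.0 and FastQC. No source used here gives the annotation, build, transcript-to-gene step or strandedness. Deposited estimated counts, 88.2% of which lay within 0.01 of a whole number, were rounded. Deposited TPM are corrected for transcript length, CPM are not. The members and lists were chosen with earlier results of these data known. Neighbours are from RefSeq's gene order (Release 6 plus ISO1 MT), used for names only.

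Genes were kept with filterByExpr (minimum count 10), scaled with TMM, and tested by quasi-likelihood in edgeR 4.0.16 under R 4.3.3 (adjusted by Benjamini-Hochberg over 10070 genes, threshold 0.05): diet with time as a factor, rhythms with a cosine and sine of 24 h per diet, the diet by replicate interaction, and the replicate difference. Ribosomal and mitochondrial rows stayed in. Amplitudes are least-squares fits to log2 CPM (prior count 2), with p from edgeR. Standard errors of fold changes are the fold change divided by the square root of its F value. The steps were run on simulated counts with known changes put into some genes. Those counts had no varying gut or ovary content and a series difference in few genes. They therefore cannot check error rates under such differences. Relations used 100000 permutations (scipy). Named genes were all PGRP genes, the 3 most alike genes of each member, and up to 4 called genes of a list with the smallest p. P-values rest on the spread between pooled samples of about 10 flies that a fit leaves over. In the diet and rhythm fits this spread includes the difference between the replicate series. It also includes diet differences between times in the diet fit, and time patterns other than the cosine in the rhythm fits. The files' depth of 5815484 to 33485917 counts limits low genes such as PGRP-SC2. Alternatives were DESeq2 1.42.0, limma 3.58.1 on log2(TPM + 1) and log2(TPM + 0.1), other filters and scalings, marker and index covariates, and libraries left out.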

Additional observations from a re-analysis of the deposited data

Results flagged for a closer look

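The diet change of PGRP-LE differed between the replicate series by 0.31 on the log2 scale (edgeR interaction over 48 libraries, adjusted p = 0.00518). It was -0.15 in replicate 1, short of the threshold (edgeR, adjusted p = 0.255), and 0.17 in replicate 2 (adjusted p = 0.0227). Of all genes tested, 9.46% passed the same interaction test, so 1 of 8 members lies near the background. With limma on log2(TPM + 1) and log2(TPM + 0.1) no member passed. The restricted PGRP-LE library was the higher one at 3 of 12 times in replicate 1 and at 9 of 12 times in replicate 2.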

How the results depend on the processing

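Of 392 values of single members under alternatives other than the removal of 1 library, 335 kept direction and side of the threshold, 32 lost a call, 15 gained one and 10 changed sign. The counts of members called moved as follows, and causes were not tested. By diet the count of 1 was 0 with gut and ovary scores (18 of all 10070 genes called) and 2 with the antimicrobial peptide index as covariate (2679 genes). It was 3 without the 6 libraries over the limit (3183 genes), and 1 to 2 over the removals of 1 library. In replicate 2 alone it was 4, where 4310 of all 10070 genes were called. In replicate 1 alone it was 0, where 2 genes in all were called. The rhythmic count of 2 was 0 with time as a factor (39 of all 10070 genes called). It was also 0 in replicate 2 alone (123 genes) and in replicate 1 alone (72 genes), and 2 to 3 over the removals. The restricted count of 1 was 0 with limma on log2(TPM + 1) (63 genes) and log2(TPM + 0.1) (61 genes) and with time as a factor (45 genes). It was also 0 in replicate 2 alone (75 genes) and in replicate 1 alone (10 genes), and 0 to 1 over the removals. The control count and the rhythm difference stayed at 0. The interaction count of 1 was 2 with DESeq2 (1293 of 9484 genes called) and with its size factors (1022 of 10070). It was also 2 without a filter (782 of 13359) and without ribosomal and mitochondrial rows (1022 of 10047). It was 0 with limma on log2(TPM + 1) (644 of 10070) and log2(TPM + 0.1) (687 of 10070), and 1 to 2 over the removals. The series count of 6 was 5 to 7 over the removals. Of the 16 relations, 4 passed, 1 on the restricted diet alone and 0 in the 6 libraries over the limit.

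Replicate numbers were not treated as pairs: the deviations of same-numbered control and restricted libraries correlated at -0.16 to 0.46 over the 12 times, over 0.1 at 8 of them and not at the rest, although the numbers mark series that differ in both diets. With a replicate block 2 members were called by diet (PGRP-LC joined, 0.28, edgeR adjusted p = 0.0132), where 3824 of all 10070 genes were called. In the block fit 4 members were rhythmic over both diets (PGRP-SA and PGRP-SC2 joined), beside 732 genes in all. On the restricted diet 2 members were called rhythmic, beside 171 genes in all.

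Sign changes were all in values not called over both series. The diet change of PGRP-SA was -0.17 with gut and ovary scores. That of PGRP-SB1 was 0.13 with the index as covariate and 0.06 without the 6 libraries. That of PGRP-LE was 0.00 with DESeq2, 0.04 with either set of covariates, 0.01 with the replicate block, 0.17 in replicate 2 alone (adjusted p = 0.0227) and -0.15 in replicate 1 alone, and -0.02 to 0.03 over the removals. Replicate 2 minus replicate 1 with the index as covariate was 0.46 for PGRP-SB1 and 0.09 for PGRP-LB, which ran from -0.12 to 0.01 over the removals. On the log2(TPM + 1) scale the median diet change of all genes was -0.09, and PGRP-LF had 0.26 (limma, adjusted p = 0.0465).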
